A study of Mus musculus with 16 samples.

Results

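The genes described here are the mouse translation initiation factors (symbols beginning Eif and a digit) and elongation factors (symbols beginning Eef and a digit). They were taken by name from the lists of sequencing peaks of Dnmt2-/- sperm, wherever a list gave such a gene as the one with the nearest promoter. This rule found 56 genes, 49 Eif and 7 Eef, of 20176 genes named in any of the 8 lists. A gene that no list named could not enter, here or among all genes, which left out 15 protein-coding Eif and Eef genes. RNA was sequenced from sperm of 4 Dnmt2-/- males on the C57BL/6 background, aged 6 to 8 months, which lack the RNA cytosine methyltransferase Dnmt2. Males 3 and 4 received a high-fat Western diet with 21% butter (HFD) and males 1 and 2 a normal diet (ND). Each male gave 1 library of free RNA (F) and 1 library of DNA-bound RNA (D), D being the RNA released by DNase from the genomic DNA of the same sperm. All 4 males carry the deletion, so no wild-type level stands beside these values, and the 8 wild-type libraries of the series were not analysed here.

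Translation begins when initiation factors bring the small ribosomal subunit and the initiator tRNA to the capped 5′ end of an mRNA and to its start codon. eIF2 carries the initiator tRNA, eIF2B recharges eIF2 with GTP, eIF3 is the large scaffold on the small subunit, and the eIF4 proteins bind the cap and unwind the leader. Elongation factors then take over, eEF1A delivering aminoacyl-tRNAs, eEF1B recharging eEF1A, and eEF2 moving the ribosome along by a codon. Mature sperm are largely silent in translation, and the mRNAs they hold are remnants of spermatogenesis together with any RNA received in the epididymis.

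A peak was counted for a gene when its centre fell in an exon, a 5′ UTR, a 3′ UTR, the region around the transcription start site (promoter-TSS) or the region around the transcription termination site (TTS). Intron and intergenic peaks were not counted. The lists held 10143 peaks in F of male 3, 18709 in F of male 4, 25406 in F of male 1 and 7635 in F of male 2, and 22726, 21171, 3427 and 49918 in D of males 3, 4, 1 and 2. Each list has its own peak width, between 170 and 400 bases, and its own lowest score, so scores were read only within a list. The F list of male 1 stood apart, with 18081 counted peaks against 126 to 1635 in the other 7 lists. Trdmt1, the gene of Dnmt2, had no counted peak in any library.

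Translation factor genes were found almost exclusively in the free RNA of males 3 and 1. In F of male 3, 9 of the 56 genes had a counted peak, or 16.1% (95% Wilson interval 8.69 to 27.8%), beside 6.76% of all genes. F of male 1 held a counted peak for 46 of the 56, or 82.1% (70.2 to 90.0%), beside 37.1% of all genes. In both lists the share of all genes lay below the counting interval of the factors, a description that is not a test. Some of the genes, such as Eif2b1 and Eif2b4, entered the 56 only through F of male 1 and could not lack a peak there. The 82.1% and its interval therefore rest in part on the rule. A count over exons that needs no such naming, described below, gave 29.4% in F of male 3 and 72.1% in F of male 1. Protein-coding genes stood at 6.84% and 32.5% in that count. F of males 4 and 2 held none of the 56 (upper bound 6.42% in each), beside 1.97% and 0.887% of all genes.

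The DNA-bound libraries held 1 factor gene each in males 3, 4 and 2 and none in male 1. All genes reached 2.85% in D of male 3, 2.57% in D of male 4, 0.625% in D of male 1 and 5.43% in D of male 2. The single factor in each of 3 D lists (1.79%, interval 0.316 to 9.45%) was therefore not distinguishable from the share of all genes. D of male 2 was the longest list of all, with 49918 peaks, and still named only Eif6 with a counted peak.

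**Figure D1:**
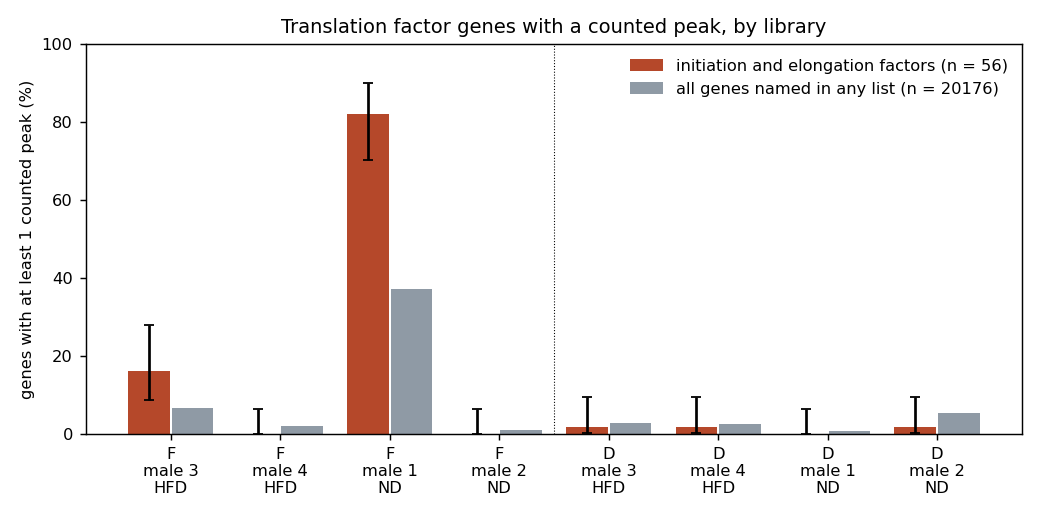
Percent of genes with at least 1 counted peak in each library, for the 56 initiation and elongation factor genes (red, bars with 95% Wilson intervals) and for all 20176 genes named in any list (grey). F libraries stand left of D libraries and HFD males left of ND males, and the factors exceed all genes in F of male 3 (16.1% and 6.76%) and F of male 1 (82.1% and 37.1%) only.

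Compared within males, F minus D was 14.3 percentage points in male 3, -1.79 in male 4, 82.1 in male 1 and -1.79 in male 2. The share averaged 24.6 ± 39.1% in F and 1.34 ± 0.893% in D (SD, n = 4 each), a mean difference of 23.2 ± 40.0 points, higher in F in 2 of 4 males. Without male 1 it was 3.57 points, and with lists held to their 3427 highest peaks 7.14 points. The difference was smaller than its spread between males. All genes behaved alike, with 11.7 ± 17.1% in F and 2.87 ± 1.97% in D. Between diets, F libraries averaged 8.04% in HFD males and 41.1% in ND males, 33.0 points less in HFD (n = 2 each), a value set by male 1 alone, since without it HFD was 8.04 points above ND. D libraries averaged 1.79% in HFD males and 0.893% in ND males. An exact permutation test of 2 against 2 males cannot go below p = 0.333, and the exact sign-flip test over 4 males has too few sign patterns to pass 0.05, so neither comparison can be called. Tested gene by gene on the number of counted peaks, F against D, 0 of 20176 genes passed the exact sign-flip test after Benjamini-Hochberg adjustment and 0 had an unadjusted p under 0.05.

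Markers of cell types were counted in the same way. All genes stood at 6.76% in F of male 3 and 37.1% in F of male 1. Of 25 genes of the epididymal epithelium, among them Gpx5, Crisp1 and the lipocalins Lcn2 and Lcn9, 15 had a counted peak in F of male 3 and 22 in F of male 1, against 1 in F of male 4 and 0 in F of male 2 and in all 4 D libraries. The summed score of their counted peaks lay between 0 and 56850 over the F libraries and was 0 in every D library. Sperm and spermatid genes, the labelled cell type, had a counted peak in F of male 1 only (11 of 16 named genes, protamines Prm1 and Prm2 included), and all 16 were at 0 in the other 7 lists. The summed score of the sperm genes was 2608 in F of male 1. Leukocyte genes reached 6 of 12 (50.0%) and erythroid genes 3 of 9 (33.3%, below the share of all genes) in F of male 1. Both were at 0 in F of male 3, and the other 6 libraries had 0 to 2 of either. By overlap with exons, leukocyte genes reached 8 of 15 and erythroid genes 5 of 7 in F of male 1, beside 32.5% of protein-coding genes. Epididymal genes then reached 17 of 25 in F of male 3 and 22 of 25 in F of male 1, and sperm genes 0 of 20 and 12 of 20. The other 6 libraries then held 0 to 3 genes of any group. Of the 6 leukocyte genes in F of male 1, Cd68 was named by a peak of 52.4 in an exon of Eif4a1. By exons neither Cd68 nor Fcer1g had a peak in any library. Summed scores by the nearest start lay between 0 and 342.9 in F and 0 and 155.5 in D for leukocyte genes. Those of erythroid genes lay between 0 and 10470 in F and 0 and 106.9 in D. The sperm had been separated from somatic cells by centrifugation, and the part of epididymal RNA in the translation factor peaks was not tested. In bulk samples, fewer cells of a type and less RNA per cell cannot be told apart.

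**Figure D2:**
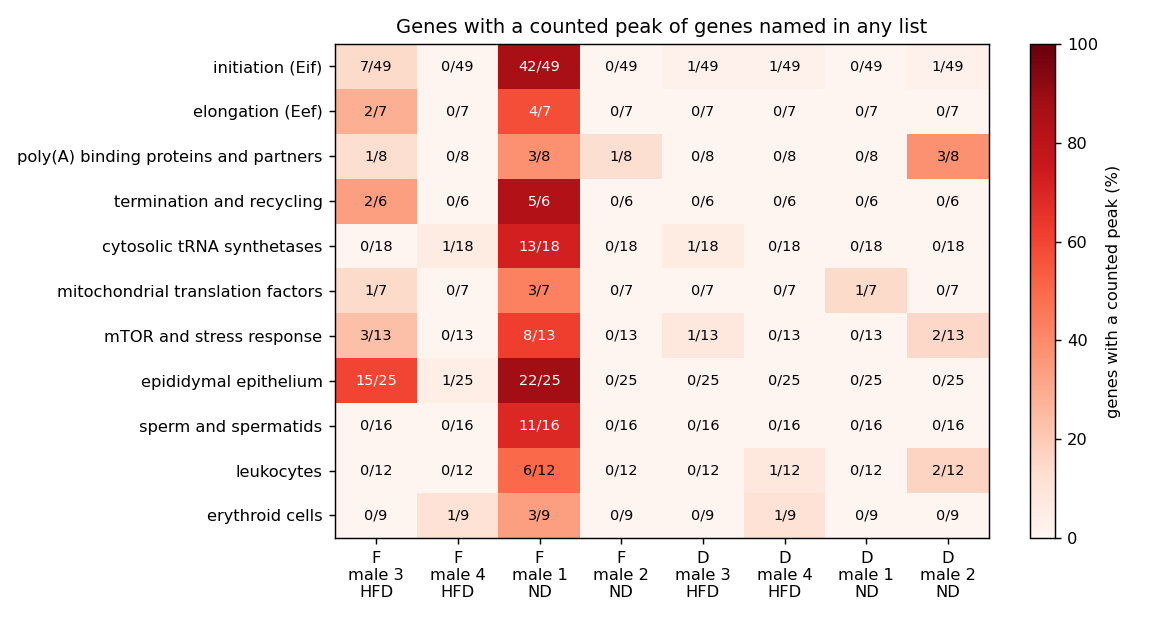
Number of genes with a counted peak, of those named in any list, for the Eif and Eef genes, 5 related groups of the translation machinery and 4 groups of cell type markers, in each library (colour: percent of the group). Initiation and elongation factors, epididymal genes and sperm genes fill F of male 1, while in F of male 3 the epididymal genes (15 of 25) are present and the sperm genes (0 of 16) are not.

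Other groups of the translation machinery were read against the 6.76% of all genes in F of male 3 and the 37.1% in F of male 1. Termination and recycling factors had a counted peak in 2 of 6 genes in F of male 3 (Gspt1, the release factor eRF3a, and Mcts2) and in 5 of 6 (83.3%) in F of male 1, but by transcript 0 of 6 had one in F of male 3 and by exons Gspt1 alone. Cytosolic tRNA synthetases and their scaffold proteins reached 0 of 18 in F of male 3 and 13 of 18 (72.2%) in F of male 1, while by exons 3 of 21 (Qars, Vars and Wars) had a peak in F of male 3. The group around mTOR and the stress response, which governs eIF4E and eIF2, had 3 of 13 in F of male 3 (Larp1, Mknk2 and Ppp1r15b) and 8 of 13 (61.5%) in F of male 1. Poly(A) binding proteins and partners reached 1 of 8 (Pabpc1) in F of male 3. In F of male 1 they reached 3 of 8 (37.5%), near the share of all genes. In D of male 2 they reached 3 of 8, beside 5.43% of all genes, but 0 of 8 by exons. Mitochondrial translation factors reached 1 of 7 in F of male 3, or 0 of 9 by exons. Their 3 of 7 (42.9%) in F of male 1 was also near the share of all genes. Apart from those 3 poly(A) genes, each of these 5 groups had 0 to 2 genes in each of the other 6 libraries.

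Only peaks of exon, UTR, promoter-TSS and TTS classes were counted, and they divided as follows. Of 107 counted peaks in F of male 1, 82 were exonic, 9 lay in a 3′ UTR, 6 in a 5′ UTR, 9 in promoter-TSS and 1 in a TTS region. Of 11 in F of male 3, 7 were exonic, 2 lay in a 5′ UTR, 1 in a 3′ UTR and 1 in a TTS region. None of the 121 counted factor peaks carried a repeat name. Leaving out repeat peaks changed the count of all genes in no library either, so this is not particular to the factors. It also does not show that the counted peaks lie outside repeats. Exonic peaks made up 76.6% of the factor peaks in F of male 1, beside 65.4% of all counted peaks there, and 3′ UTR peaks 8.41%, beside 19.4%.

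Before the genes are taken in turn, the start sites of the factors whose peak in F of male 3 began near the 5′ end show what kind of promoter these mRNAs have. Many mRNAs of the translation machinery begin with a C followed by an unbroken stretch of pyrimidines, the 5′ TOP motif, through which mTOR and Larp1 control their translation. Shown are 30 bases around the RefSeq start site (build GRCm38.p6, sense strand, 5′ to 3′), with the transcribed bases in capitals, for 5 initiation factors whose peak centre in F of male 3 lay within 400 bases of the start, and for 2 elongation factors with the highest scores. Eif4ebp1 also met the rule and is named only.
Eif3f (chr7:108934400-108934429, plus strand): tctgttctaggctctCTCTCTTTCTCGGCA
Eif3b (chr5:140419290-140419319, plus strand): ctagcggcgcgcggtGACTTCTGGGAGTCG
Eif1 (chr11:100319934-100319963, plus strand): gcgctggcgtcacagGGGCGGCTATATAAG
Eif4a3 (chr11:119300029-119300058, minus strand): gcgcgcgccttacatCCGGTTCCCGCCGCG
Eif5 (chr12:111538086-111538115, plus strand): gagatcgacgtgcatGCGAGCCAATGACAA
Eef1a1 (chr9:78481710-78481739, minus strand): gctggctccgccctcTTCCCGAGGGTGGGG
Eef2 (chr10:81176616-81176645, plus strand): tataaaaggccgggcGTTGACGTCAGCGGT
A C followed by at least 4 pyrimidines, beginning within 10 bases of the start on the sense strand, was present in 2 of the 5 initiation windows (Eif3f and Eif3b) and in 1 of the 2 elongation windows (Eef1a1). Over all RefSeq starts of the families the same letters were found at 22 of 58 Eif starts (37.9%) and 2 of 13 Eef starts (15.4%), beside 30.7% of 32851 starts of all genes. The search describes letters at annotated starts, which need not be the starts used in these cells.

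Of 13 named subunits of the eIF3 scaffold, 2 had a counted peak in F of male 3 and 12 in F of male 1. Eif3f had 1 counted peak in F of male 3, 5 in F of male 1 and none elsewhere. The peak of male 3 covered exon 1 (chr7:108934457-108934682, mm10), and its score of 309.5 ranked 120 of 10143. The peak of male 1 over the same exon scored 106.3 (rank 1351), and the highest of the 5 lay in exon 6 with 116.8 (rank 1129). Eif3f thus had the highest peak of any initiation factor in F of male 3. Eif3b, another core subunit, had by the nearest start 1 counted peak in F of male 3 and 1 in F of male 1, both over exon 1. They scored 59.4 (rank 3764) in male 3 and 121.3 (rank 1060) in male 1. By transcript Eif3b had 2 counted peaks in F of male 3 and 4 in F of male 1. The highest in male 3 was then a 3′ UTR peak of 78.4 (rank 1882). Eif3c, a core subunit, had 11 counted peaks in F of male 1 by the nearest start, 1 of them in the 3′ UTR of Cln3, and none in F of male 3. By exons it had 10 in F of male 1, and Eif4g3 had 11.

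Eif1, whose protein guards the choice of the start codon, had 2 counted peaks in F of male 3 and 3 in F of male 1. The 3′ UTR peak of male 3 (chr11:100321653-100321878) scored 142.0 (rank 336) and the 5′ UTR peak 61.5 (rank 3620). In F of male 1 the 5′ UTR and 3′ UTR peaks both scored 137.7 (rank 866), and an exon 2 peak scored 67.4. Eif1 was thus present at both ends of its short mRNA in both males. Eif1ax, which works beside Eif1 on the small subunit, had 3 counted peaks in F of male 1 only, the highest with 55.4, and 1 of the 3 lay in the 3′ UTR of its neighbour Rps6ka3. Eif5, the GTPase-activating partner of eIF2, had a 5′ UTR peak in both F lists, with 76.3 (rank 1957) in male 3 and 86.8 (rank 1872) in male 1.

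Named by the nearest start, eIF2, eIF2B and the kinases that act on eIF2 had counted peaks in F of male 1 only, apart from a TTS peak of Eif2d in D of male 4. Of 6 named genes of eIF2 and related carriers of the initiator tRNA, 5 had a counted peak in F of male 1 and 0 in F of male 3. Eif2a had the highest, 140.7 (rank 828), 222 bases upstream of its start, and a second of 82.4 in the 3′ UTR of its neighbour Serp1. Eif2s2, the beta subunit of eIF2, had a 5′ UTR peak of 43.4. Of the eIF2B subunits, 4 had peaks in F of male 1, with scores no higher than 28.4 (Eif2b2 and Eif2b4). Eif2b3 was named by no list, and by exons 4 of 5 subunits had a peak in F of male 1. Of the kinases, Eif2ak1 (the haem-regulated kinase) and Eif2ak3 (PERK, the kinase of the endoplasmic reticulum) had 1 exon 1 peak each, at ranks 22570 and 23745 of 25406. The median of the highest peak over all genes with a counted peak in F of male 1 was 37.4. By the nearest start, Eif2a and Eif2s2 were above it, and the eIF2B subunits and both kinases below. By exons 4 of 6 genes of eIF2 and related carriers had a peak in F of male 1. Eif2a was not among them, so its place rests on peaks outside its exons. Peaks over exons added Eif2s3y in F of male 3, by a peak in a repeat with a score of 67.8 (rank 2753), and raised the highest peak of Eif2ak1 in F of male 1 to 38.9.

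The cap-binding and helicase group had 2 of 10 named genes with a counted peak in F of male 3 and 9 of 10 in F of male 1. Eif4a3, a helicase that also sits in the exon junction complex, was the only factor with counted peaks in 3 libraries: 1 in F of male 3 (exon 1, 55.1), 6 in F of male 1 and 1 in D of male 3. The D peak lay at the end of the gene (chr11:119288179-119288367) and scored 112.3 (rank 4290 of 22726). Of the 6 peaks in F of male 1, 3 lay in the adjoining gene Gaa, the 2 highest (79.4 and 71.9) among them. Eif4g2, a relative of the eIF4G scaffold, had an exon 12 peak of 107.8 in F of male 1. Eif4g1, the scaffold that joins the cap to eIF3, had a counted peak by the nearest start in F of male 3 only, a TTS peak of 59.4 in the upstream gene Psmd2. Peaks classed as intron also named it, with 59.4 and 55.1 in F of male 3 and 41.9 in F of male 1.

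The proteins that bind and restrain the cap-binding protein eIF4E gave 1 gene in F of male 3 and 3 of 4 in F of male 1, or 2 of 4 by exons, since both peaks named for Eif4ebp3 lay in exons of Ankhd1. Eif4ebp1 had an exon 1 peak in F of male 3 (40.3, rank 6984) and none in F of male 1. Eif4ebp2 had an exon 1 peak of 25.5 in F of male 1 and none in F of male 3. By exons it had 5 peaks in F of male 1, the highest 80.9 (rank 2127), and again none in F of male 3. The 2 lists thus named different genes of this pair. Eif4enif1, the nuclear shuttle of eIF4E, had a promoter-TSS peak of 21.0 in F of male 1. Eif5a, needed for peptide bonds between prolines, had an exon 3 peak of 46.4 in F of male 1, and Eif6, which keeps the large subunit from joining too early, a 5′ UTR peak of 44.9. By exons the highest peak of Eif5a was 83.8 in F of male 1, and F of male 3 held a peak of 48.8.

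The counted peaks of the D libraries were few. Eif6 had a promoter-TSS peak upstream of its start in D of male 2, with a score of 12.6 (rank 29817 of 49918). Eif4a3 had the TTS peak described above in D of male 3. Eif2d, an alternative carrier of the initiator tRNA, was named by a TTS peak of 38.9 in D of male 4 that lay in the gene Rassf5, while its own peak in F of male 1 (exon 5) ranked 22570 of 25406. None of the 3 lay in an exon or UTR, and no elongation factor had a counted peak in D.

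Among the elongation factors named by the nearest start, Eef1a1 had the highest scores. In F of male 1, Eef1g (326.4) and Eef1b2 (107.8) were also above the median of the highest peak over all genes (37.4), and Eef2kmt was at it. In F of male 3, Eef1g (55.1) was below that median (65.7). Eef1a1 had 1 counted peak in F of male 3, 2 in F of male 1 and none in the other 6 libraries. Its peaks in F of male 1 lay in exon 7 of 8 (chr9:78478974-78479143) with a score of 1942.0 (rank 49 of 25406) and in exon 3 with 1585.6 (rank 63). Its counted peak in F of male 3 lay in exon 5 with 201.4 (rank 193), and 2 more peaks that HOMER gave to introns scored 320.1 (rank 115) and 184.4 (rank 235) and overlapped exons. No other factor ranked as high in F of male 1. Eef1a1 has many processed copies in the genome, so reads may be shared between them and its scores are uncertain in that respect.

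Eef1g, the gamma subunit of eEF1B, had 2 counted peaks in F of male 3 and 6 in F of male 1. The highest lay in exon 7 in both, with 55.1 (rank 4334) in male 3 and 326.4 (rank 260) in male 1. Eef1b2, the nucleotide exchange subunit of eEF1B, had 2 counted peaks in F of male 1 (107.8 and 104.8) and none in F of male 3. Both lay 400 and 966 bases downstream of the Eef1b2 start but were classed by HOMER as promoter-TSS of the divergent neighbour Ndufs1. Eef2kmt, the methyltransferase of eEF2, had 1 peak in F of male 1 (37.4), a TTS peak of the neighbour Alg1. Eef2k, the kinase that inactivates eEF2, Eef1akmt1, a methyltransferase of eEF1A, and Eef1e1, a protein of the tRNA synthetase complex, had no counted peak in any library.

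Set side by side, 7 of 49 initiation factors (14.3%, interval 7.10 to 26.7%) and 2 of 7 elongation factors (28.6%, 8.22 to 64.1%) had a counted peak in F of male 3, a difference of -14.3 points (95% Newcombe interval -50.5 to 9.53). Among genes in F of male 1, 42 of 49 initiation factors (85.7%, 73.3 to 92.9%) and 4 of 7 elongation factors (57.1%, 25.0 to 84.2%) had one, a difference of 28.6 points (-1.16 to 61.5). The sign of the difference was opposite in the 2 males, and both intervals held 0. With 7 elongation genes the shares cannot separate the families. With regulators left out the difference was -35.7 points in F of male 3 and 13.1 in F of male 1, and with exon and UTR peaks only it was 51.0 in F of male 1. The scores ran the other way in F of male 1, where the median of the highest peak per gene was 30.7 in the 42 initiation factors (12.0 to 140.7) and 217.1 in the 4 elongation factors (37.4 to 1942.0). The medians in F of male 3 were 59.4 (40.3 to 309.5) and 128.3 (55.1 to 201.4). When each list was held to its 3427 highest peaks, the length of the shortest list, F of male 1 kept 9 of 49 initiation factors (18.4%) and 3 of 7 elongation factors (42.9%), and F of male 3 kept 3 of 49 (6.12%) and 1 of 7 (14.3%). At that length 21.4% of the factors were left in F of male 1 and 7.14% in F of male 3, beside 7.24% and 3.59% of all genes. The other 6 lists kept no factor at that length, beside 0.352% and 0.342% of all genes in F of males 4 and 2 and 0.362%, 0.347%, 0.625% and 0.283% in D of males 3, 4, 1 and 2.

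How a peak receives its gene mattered for the elongation factors. HOMER names the gene with the nearest promoter, and several factor genes host small nucleolar RNA genes in their introns, whose own starts can be nearer to a peak. Of 168 counted peaks in a transcript of an Eif or Eef gene, 63 carried the name of another gene, 24 of them that of a small nucleolar RNA or microRNA. Conversely, 16 of the 121 counted peaks named for a factor lay in a transcript of another gene. Eef2, the translocase itself, was named nowhere by the nearest promoter, because its peaks carried the names Snord37 and Dapk3. Those peaks were among the highest of the factors, 652.8 and 628.9 (ranks 132 and 137) in F of male 1 and 265.0 (rank 139) in F of male 3.

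With the gene taken from the transcript that HOMER named, 53 Eif and Eef genes were found, of which 14 (26.4%) had a counted peak in F of male 3 and 48 (90.6%) in F of male 1, beside 8.85% and 47.2% of all genes so named. By this count 10 of 47 initiation factors (21.3%) and 4 of 6 elongation factors (66.7%) had a peak in F of male 3, and 44 of 47 (93.6%) and 4 of 6 (66.7%) in F of male 1. The D libraries of males 3, 4 and 2 again held 1 each (beside 3.86%, 3.47% and 7.36% of all genes), among them a TTS peak of Eif2ak3 in male 4. D of male 1 and F of males 4 and 2 held none, beside 0.841%, 2.64% and 1.2%.

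A further count, chosen after the data were seen, took every peak that overlapped an exon of a protein-coding gene by at least 1 base in GENCODE M21, whatever its class. Of 68 Eif and Eef genes there, 20 (29.4%) had such a peak in F of male 3 and 49 (72.1%) in F of male 1, beside 6.84% and 32.5% of 21951 protein-coding genes. The D libraries held 3 (Eif4a3, Eif2ak2 and Eif5) in male 3 and 1 (Eif2a, in a repeat) in male 2, beside 2.63% and 6.43% of all, while F of males 4 and 2 and D of males 4 and 1 held none, beside 1.89%, 0.788%, 2.41% and 0.692%. Initiation factors reached 15 of 55 (27.3%) in F of male 3 and 43 of 55 (78.2%) in F of male 1. Elongation factors reached 5 of 13 (38.5%) and 6 of 13 (46.2%). The direction of the difference between the families was the same under all 3 ways of naming in both males, negative in F of male 3 and positive in F of male 1.

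**Figure D3:**
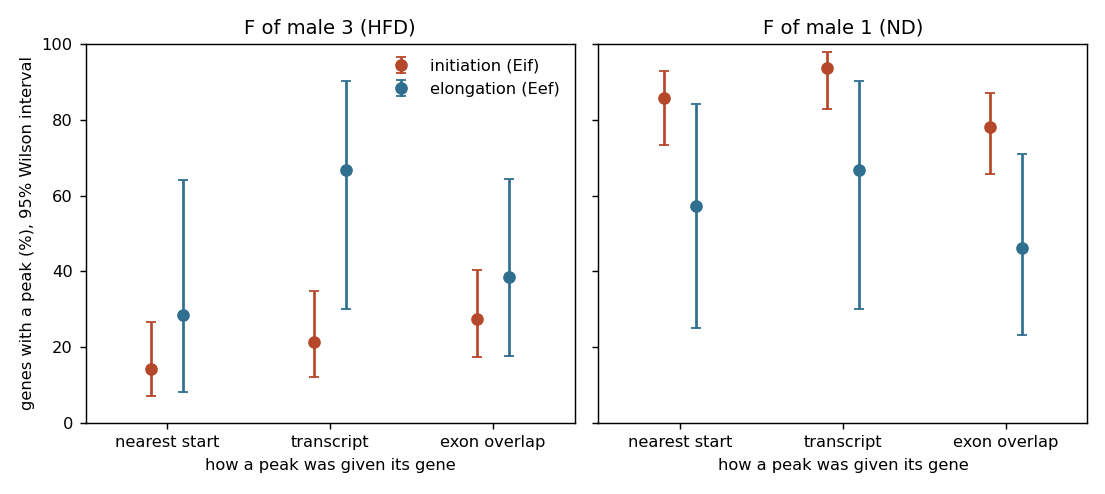
Percent of initiation (red) and elongation (blue) factor genes with a peak in F of male 3 and F of male 1, under 3 ways of giving a peak its gene, with 95% Wilson intervals. Initiation factors are below elongation factors in F of male 3 (14.3% and 28.6% by the nearest start) and above them in F of male 1 (85.7% and 57.1%), with wide intervals for the few elongation genes.

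The exon count brought in the core elongation genes with a peak in both males. Eef2 had 3 such peaks in F of male 3 and 4 in F of male 1, Eef1d, the delta subunit of eEF1B, 1 and 4, Eef1g 2 and 6, Eef1a1 3 and 2, and Eef2kmt 1 and 2. Eef1b2 had 0 and 5. The highest scores were 265.0 and 652.8 for Eef2 and 50.9 and 70.4 for Eef1d. Of the 6 elongation genes found in male 1, all but Eef1b2 were found in male 3 too. Genes at 0 in every library were the tissue-restricted Eef1a2, the kinase Eef2k, Eef1e1 and 4 methyltransferases of eEF1A (Eef1akmt1, Eef1akmt2, Eef1akmt3 and Eef1akmt4).

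Among initiation factors, 7 of 12 genes of the cap-binding and helicase group carried a peak over an exon in F of male 3 (Eif4a1, Eif4a2, Eif4a3, Eif4b, Eif4g1, Eif4g2 and Eif4g3), against 11 of 12 in F of male 1. Eif4g1 had 6 peaks over exons in F of male 3, more than any other factor there, and 3 in F of male 1. Its highest scores were 80.6 (rank 1665) in male 3 and 283.0 (rank 313) in male 1, the highest of any initiation factor in F of male 1. eIF3 had 3 of 14 (Eif3a, Eif3b and Eif3f) and 13 of 14, and eIF2B 0 of 5 and 4 of 5. Eif4a2, a second form of the eIF4A helicase, scored 61.5 and 233.6, but its highest peak in each male covered the small nucleolar RNA Snora81. Of the peaks over exons of the 9 host genes of small nucleolar RNAs, 1 of 14 in F of male 3 and 1 of 29 in F of male 1 covered such an RNA.

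**Figure D4:**
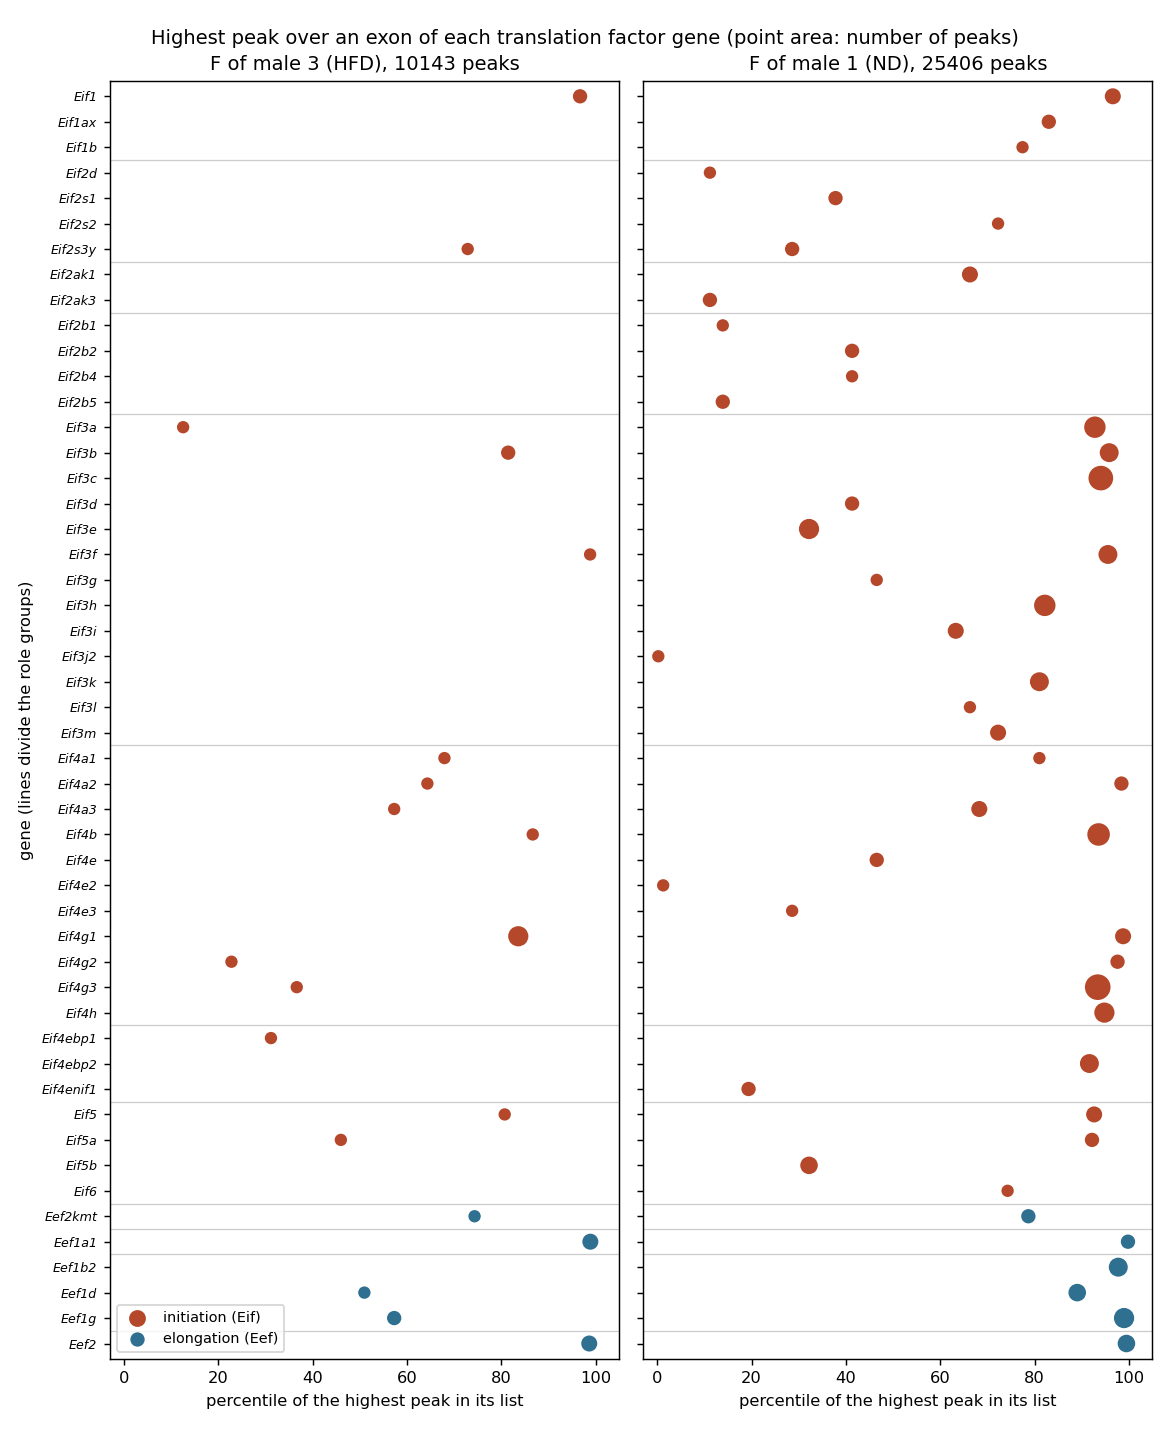
Highest peak over an exon of each Eif (red) and Eef (blue) gene with a peak in F of male 3 or F of male 1, as its percentile in the list of that library (100 is the highest peak), with point area growing with the number of peaks. Eef1a1 and Eef2 lie at the right edge in both lists, Eif3f and Eif1 are high in F of male 3, and the eIF2B subunits appear in F of male 1 only.

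Set by the exon count, the highest peak per gene had a median score of 63.6 (29.7 to 309.5) in the 15 initiation factors and 70.0 (50.9 to 320.1) in the 5 elongation factors in F of male 3, beside 63.6 over all genes with a peak. In F of male 1 the medians were 43.4 (10.5 to 283.0) in 43 initiation factors and 251.6 (49.4 to 1942.0) in 6 elongation factors, beside 37.4 over all. Per kilobase of exon, the genes with a peak had a median of 0.240 peaks in initiation and 0.769 in elongation factors in F of male 3, and 0.481 and 1.00 in F of male 1, beside 0.241 and 0.445 over all genes with a peak.

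Factors seen in F of male 3 were compared with those of F of male 1, which held 82.1% of all 56. By the nearest start, 7 of the 9 genes (77.8%) were shared, a share no higher than that, or 15.2% of the 46 of male 1. They were Eef1a1, Eef1g, Eif1, Eif3b, Eif3f, Eif4a3 and Eif5. By exons, 19 of the 20 were shared, or 38.8% of the 49 of male 1, with Eif4ebp1 the exception. F of male 1 held 72.1% of all 68 factors by exons. The share of all genes shared in this way was not computed, so the overlap is not shown to be particular to the factors. Positions were compared next. Of 20 counted peaks in F of male 3 named for a factor or lying in a factor's transcript, 15 (75.0%) overlapped a peak of F of male 1 by at least 1 base, beside 854 of 1635 (52.2%) of all counted peaks in F of male 3. The exon 1 peak of Eif3f, the exon 11 peak of Eef2, the 5′ UTR peaks of Eif1 and Eif5 and the exon 1 peak of Eif3b each held the whole 170 bases of the peak of male 1. The exon 5 peak of Eef1a1 and the exon 1 peak of Eif4ebp1 overlapped no peak of F of male 1.

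Along the exons, the centres of initiation factor peaks in F of male 3 had a median position of 24.2% of the exonic length (22 peaks), and 13 of 22 lay in the first part of the mRNA when it was cut into 3 equal parts. Peaks of elongation factors had a median position of 65.0% (10 peaks), with 2 of 10 in the first part. The medians in F of male 1 were 43.1% (136 peaks) for initiation and 59.6% (23 peaks) for elongation factors. Peaks of 1 gene share their transcript, so these positions are a description and were not tested. In F of male 3 the first exon held 27.8% of the exon and UTR peaks in factor transcripts (5 of 18), beside 26.3% over all genes. By the nearest start it held 5 of 10 (50.0%). Both counts pool the families, and initiation factors alone were not set beside all genes. The position is therefore not shown to be particular to the factors.

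**Figure D5:**
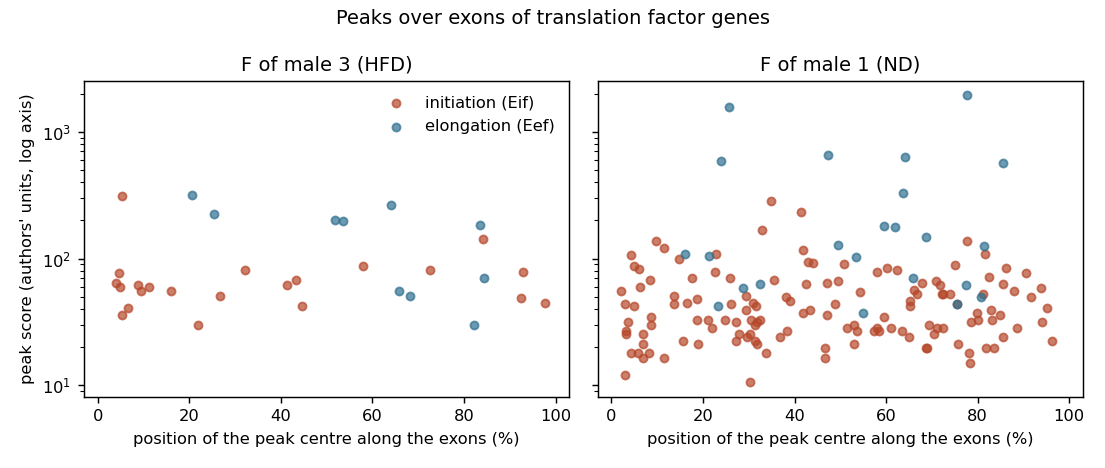
Position of each peak over an exon of an Eif (red) or Eef (blue) gene, in percent of the exonic length from the 5′ end, against the peak score in the authors' units (log axis), in F of male 3 and F of male 1. Peaks of initiation factors in F of male 3 have a median position of 24.2%, and the highest scores in F of male 1 belong to Eef1a1 (1942.0 and 1585.6).

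Peaks that named a factor but lay outside its mRNA were the main kind in the other lists. F of male 4 had 21 peaks naming a factor, 13 in introns and 8 intergenic, of which 12 fell in annotated repeats. D of male 2 had 62, of which 38 fell in repeats, D of male 3 had 30 with 21, and D of male 4 had 26 with 18. The share of all peaks in repeats was not computed, so these counts are not shown to be particular to the factors. With intron peaks added, 17 of the 56 genes (30.4%) were named in F of male 3, 8 (14.3%) in F of male 4, 48 (85.7%) in F of male 1 and 0 in F of male 2, beside 19.3%, 21.1%, 43.5% and 10.8% of all genes. D of males 3, 4, 1 and 2 then named 7 (12.5%), 5 (8.93%), 2 (3.57%) and 19 (33.9%), beside 25.1%, 23.4%, 5.88% and 38.9% of all genes. In the 6 lists other than F of males 3 and 1, the percent of factors was below that of all genes once introns were counted, a difference that was not tested.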

How the data were processed

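RNA was sequenced from free and DNA-bound fractions of sperm of 4 Dnmt2-/- males. The authors cropped and trimmed reads (cutadapt, Trimmomatic 0.36), aligned them to GRCm38 with Hisat2, called peaks per library with HOMER 4.9 (4-fold over a local region of 10000 bases, false discovery rate 0.001) and annotated them against mm10. The deposited lists give each peak a score, computed by the authors in a unit not stated, and the distance from its centre to the nearest start, a value in bases given by the authors. Every peak is given on 1 strand, which leaves sense and antisense signal mixed, and depth outside peaks is not shown. Library lists were given to males by sheet names equal to the sample titles, and 0 columns of values were unused.

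The members and gene lists were chosen with earlier results of these data known. Genes described singly were all Eef members, members with a counted peak in 2 or more libraries or in any D library, and the 2 with the highest peak per role group in F of males 1 and 3; genes found by transcript or exon only were named after their values were seen. Peaks were counted in Python 3.11.15 (pandas 2.3.3, numpy 2.4.6); intervals are Wilson or Newcombe intervals at 95% (scipy 1.17.1) and cover counting error only. The fractions were paired by male, each male having given both, and the sign-flip test was tested on simulated data. Exons came from GENCODE M21 and start sites from RefSeq, both on GRCm38. Alternatives were the peak classes, repeats, the naming of genes, list length, score and leaving out each male. Wild-type libraries were not used here. The lists place Eif3j2 on chromosome 2, where RefSeq has Eif3j1, so its name is uncertain. Males 1 and 2 (ND) and males 3 and 4 (HFD) count as replicates by label.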

Additional observations from a re-analysis of the deposited data

Results flagged for a closer look

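Among the 4 F libraries, male 1 stood far from the others in the percent of initiation factors with a counted peak (gap of 0.833 of the range) and in the percent of all genes (0.838), past Dixon's critical value for 4 samples. Among the 4 D libraries, male 1 with no factor stood apart from the other 3 with 1 each (1.0 for all factors, for initiation factors and for the count by transcript), a difference of 1 gene. Of 27 named genes, 18 had such a library in F, Eif4a3 with 0.833 and 17 with a ratio of 1.0. For these 17 a single F library held counted peaks by the nearest start (Eef1b2, Eef2kmt, Eif1ax, Eif2a, Eif2ak1, Eif2ak3, Eif2b2, Eif2b4, Eif2d, Eif2s2, Eif4ebp1, Eif4ebp2, Eif4enif1, Eif4g1, Eif4g2, Eif5a and Eif6). The library was F of male 3 for Eif4ebp1 and Eif4g1 and F of male 1 for the rest. By exons, Eef2kmt, Eif4g1, Eif4g2 and Eif5a had peaks in F of both males 3 and 1. In D, 3 genes had a ratio of 1.0 (Eif2d, Eif4a3 and Eif6). Chance marks about 1 in 20 groups of normal values, and counts at 0 are marked more often.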

How the results depend on the processing

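Most comparisons kept their direction. HFD minus ND in F (-33.0 points) turned to 8.04 without male 1, and the range over leaving out each male was -74.1 to 8.04. HFD minus ND in D (0.893) turned to -8.04 when intron peaks were added. Initiation minus elongation in F of male 1 (28.6) turned to -24.5 when lists were held to their 3427 highest peaks, the cause of which was not tested. With lists so held, the number of members with a counted peak was 12 in F of male 1, 4 in F of male 3 and 0 in D of males 3, 4 and 2. With exon and UTR peaks only it was 0 in D of males 3, 4 and 2. With intron peaks added it was 17 in F of male 3, 8 in F of male 4, and 7, 5, 2 and 19 in D of males 3, 4, 1 and 2. By transcript it was 14 in F of male 3, and by exon overlap 20 in F of male 3, 3 in D of male 3 and 0 in D of male 4. F minus D stood at 23.2 points with no replicate block as with it, but ranged from 3.57 (without male 1) to 31.5 over leaving out each male and was 7.14 with lists held to their 3427 highest peaks. Initiation minus elongation was 51.0 in F of male 1 with exon and UTR peaks only, 18.4 with scores of at least 2 times the lowest, 16.3 with introns and 13.1 without regulators. In F of male 3 (-14.3) it was -45.4 by transcript, -35.7 without regulators and -8.16 with lists so held. Without the block, 0 genes passed an exact permutation test of 4 against 4 libraries after adjustment and 2 had an unadjusted p under 0.05. The lists hold peaks above a calling threshold only, so a gene without a peak may still have reads.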

Other observations

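A peak upstream of Eif4enif1, the shuttle protein of eIF4E, recurred in 7 of the 8 lists, the exception being F of male 1. It lay upstream of the start of the gene, at a distance by peak centre of -3879 to -3802 bases, in a copy of the endogenous retroviral repeat RMER6B, and all 7 peaks shared chr11:3198455-3198573 (mm10). Its score was 114.5 (rank 573) in F of male 3, 105.7 (rank 142) in F of male 4 and 131.4 (rank 127) in F of male 2. In D it was 109.9 (rank 4683) in male 3, 184.6 (rank 442) in male 4, 21.3 (rank 2085) in male 1 and 177.5 (rank 99) in male 2. No exon of Eif4enif1 held a peak in these 7 lists, while F of male 1, without the repeat peak, had 2 peaks over exons of the gene.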
